A study of Caenorhabditis elegans with 12 samples.

Results

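The hedgehog-related and patched-related genes of Caenorhabditis elegans were followed across 4 genotypes of whole worms. Members were the genes whose identifier carries, in the WBcel235 annotation, a name beginning with wrt-, grd-, grl-, hog-, qua-, ptr- or ptc-. The annotation holds 85 such genes, all protein coding, and 59 of them had a row among the 14326 genes of the expression matrix. The secreted families contributed 34 of their 59 genes (9 of 10 wrt, 11 of 16 grd, 12 of 31 grl, hog-1 and qua-1). The patched-related families contributed 25 of 26 genes (ptc-1, ptc-3 and 23 of 24 ptr genes). The other 26 genes, 19 of them grl genes, were not analysed here.

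The 4 groups were the double mutant isp-1;sod-3 (called here the sod-3 double mutant), the double mutant isp-1;sod-5 (the sod-5 double mutant), the isp-1 single mutant and wild type, with 3 libraries each. Both double mutants carry the isp-1 mutation, so isp-1 is their reference for the loss of a sod gene. The product of isp-1 is the Rieske subunit of mitochondrial complex III, and the sod genes encode superoxide dismutases, which remove superoxide. The alleles are not named in the labels. All worms were labelled as young adults before fertility, were grown at 20 °C on OP50 bacteria and were sequenced whole. The design text gives 9 RNA isolates per genotype, 3 of them combined in each library, while the sample labels give no pooling, so p-values measure the spread between these libraries, some of which may be technical.

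Worms have no canonical Hedgehog ligand and no Smoothened, but carry large families of secreted proteins with a carboxy-terminal Hog domain or with Wart, Ground or Ground-like domains. The Hog domain corresponds to the self-cleaving part of the Hedgehog precursor in other animals. The patched-related proteins are multipass membrane proteins with a sterol-sensing domain, related to the Hedgehog receptor Patched and to the sterol transporter NPC1. Many genes of both kinds are expressed in epidermis, seam cells and glia, several are needed for molting and for building the cuticle, and many oscillate with the larval molts.

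Libraries held between 5.44 and 155.07 reads in genes in units of 1000000, so the deepest, of the sod-3 double mutant, was 28.5 times the shallowest, of the sod-5 double mutant. The sod-3 gene followed its label against isp-1, with 0.148 to 1.74 CPM (counts per 1000000 reads in genes) in sod-3 double mutants and 18.6 to 20.7 CPM in isp-1. Wild type had 1.68 to 2.6 CPM of sod-3, a range that overlaps that of sod-3 double mutants. The sod-5 gene had 0 to 0.35 CPM in sod-5 double mutants, a range that overlaps the 0.115 to 0.616 CPM of isp-1, so its low level checks the label only weakly. The isp-1 transcript had 332 to 348 CPM in isp-1 and 273 to 306 CPM in wild type, and does not check that label. None of the tested marker genes of epidermis and seam (12 genes), glia (9), pharynx (6), neurons (8) or intestine (8) was at 0 in any library. These had passed the expression filter, so the absence of 0 values says little. Of the 18 listed epidermis and seam markers, 4 had no row in the matrix and 1 was not a name in the annotation. Of the 11 listed glial markers, 2 had no row. A further listed epidermis and seam marker, nhr-74, was too low to be tested. It had 0, 0 and 0.05 CPM in sod-5 double mutants, with means of 0.145 CPM in sod-3 double mutants, 0.763 in isp-1 and 0.741 in wild type.

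Per kilobase of exon, levels of the 59 members spanned a wide range. Averaged over the 12 libraries, grd-5 had 180 CPM per kb, grd-3 130, the patched homolog ptc-1 127, grl-16 89.8 and ptr-2 86.9. At the other end stood ptr-22 with 0.406 CPM per kb and grd-11 with 0.346. The Warthog gene with the highest mean was wrt-4 at 11.9 CPM per kb, close to wrt-10 at 11.7. The wrt-4 mean joins 3.93 CPM per kb in sod-3 double mutants, 3.03 in sod-5 double mutants and 3.95 in isp-1 with 36.7 in wild type. In the mutants wrt-10 was the higher of the pair, with 15.5 CPM per kb in sod-3 double mutants, 11.2 in sod-5 double mutants and 10.1 in isp-1, beside 9.85 in wild type.

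Members were tested with limma on log2(CPM + 0.5), and a gene was called at an adjusted p below 0.05. A fold change on this scale understates the change of low genes. The 14013 genes with more than 1 CPM in at least 3 libraries were tested, and 58 of the 59 members were among them. The exception was grl-1, with 0.554, 0.61 and 0.115 CPM in isp-1 and 0.745, 0.748 and 0.573 CPM in wild type (exact two-sided permutation test, p = 0.2, where the smallest possible p is 0.1).

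**Figure D1:**
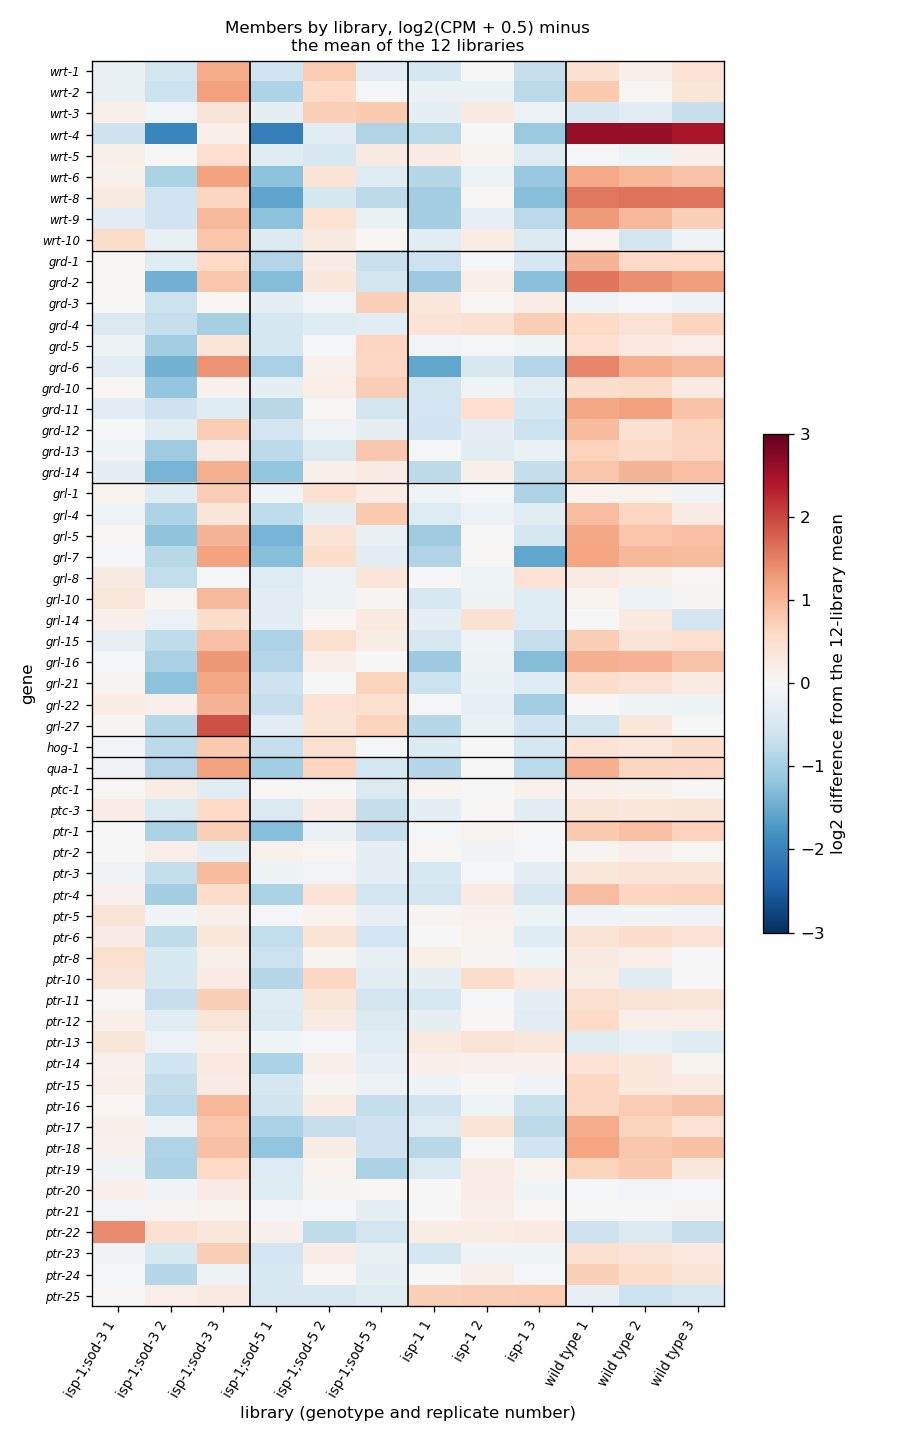
Colour shows log2(CPM + 0.5) of each member minus that gene's mean over 12 libraries, with 1 row for each of the 59 members grouped by family and 1 column per library, the sod-3 double mutant at the left and wild type at the right. Wild-type libraries are high for most secreted genes, with wrt-4 showing the widest gap, while within the sod-3 double mutant replicate 3 is high and replicate 2 low across most rows.

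Setting isp-1 beside wild type asks what accompanies the complex III mutation alone. In isp-1, 13 members fell and 2 rose, while 43 did not pass the test. Over all tested genes, 10.4% were called lower and 9.6% higher, and 20.0% were called in either direction. The falls lay mostly in the secreted families, with 11 of 33 genes lower and 0 higher, against 2 lower and 2 higher among the 25 patched-related genes. The median log2 fold change was -0.83 for the secreted genes and -0.50 for the patched-related genes, beside 0.01 for all tested genes. That the secreted genes differ from the patched-related genes was not tested.

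Most members lay below wild type without passing the test. The 43 members that were not called lay between -1.49 for grl-5 (adjusted p = 0.0833) and 0.82 for ptr-22 (adjusted p = 0.0733), both chosen after their values were seen. Of 58 members, 47 had a log2 fold change below 0, beside 49.2% of all tested genes. In 38 members all 3 isp-1 libraries lay under all 3 wild-type libraries, which held for 25.7% of all tested genes. At least 2-fold lower were 17 members, against 9.26% of all tested genes. The count of calls depended on the libraries in the fit. Leaving out wild-type replicates 1, 2 and 3 in turn left 4, 5 and 8 calls, beside 8.74%, 8.4% and 10.4% of all tested genes. Leaving out isp-1 replicates 1, 2 and 3 left 4, 16 and 4, beside 7.93%, 15.4% and 7.76%. With 4 or 5 calls among 58 members, the members' share was near or under that of all genes. Without sod-3 double-mutant replicate 2, 22 members were called (25.6% of all tested genes), and without its replicate 3 also 22 (23.9%). The 4 members called in all 12 of these fits were wrt-4, wrt-8, ptr-13 and ptr-25. With only the isp-1 and wild-type libraries in the fit, 41 members were called (4 higher, 37 lower), against 40.7% of all tested genes.

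**Figure D2:**
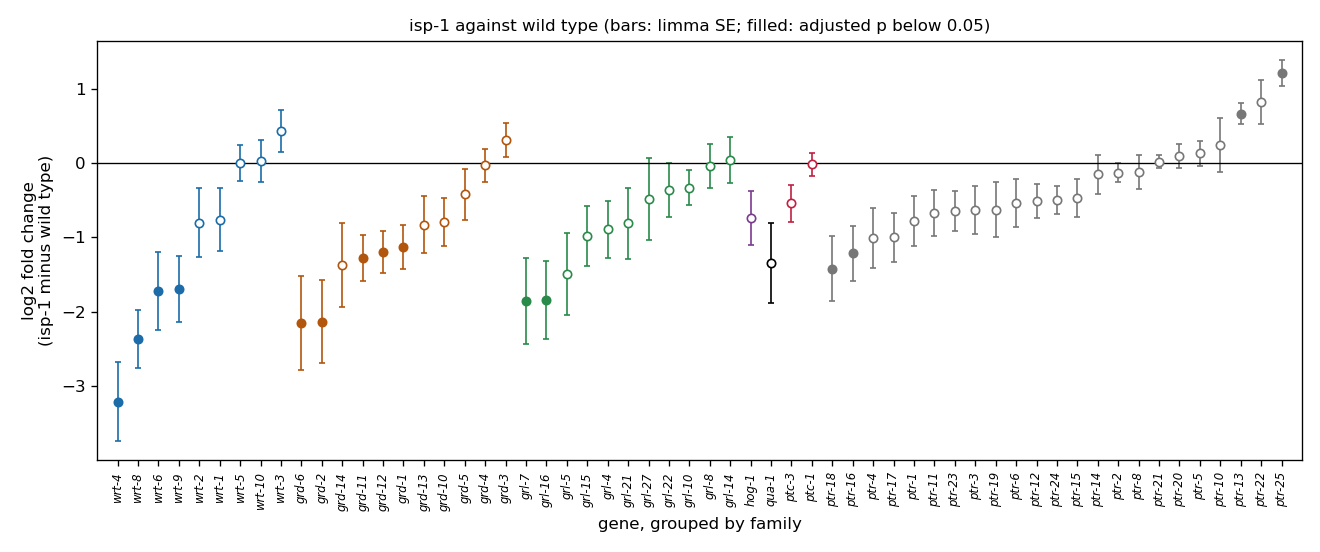
Log2 fold change of isp-1 over wild type for each tested member, on log2(CPM + 0.5), with bars of 1 limma SE on each side, grouped by family, filled where the adjusted p was below 0.05. The 13 filled points below 0 lie mostly among wrt and grd genes, the widest at -3.21 for wrt-4, and the 2 filled points above 0 are ptr-13 and ptr-25.

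Among the Warthog genes, 4 of 9 fell in isp-1 and 0 rose. Their products carry a Wart domain, and some also a Hog domain. The widest difference of any member was that of wrt-4 (WBGene00006950, chromosome X, 15752257 to 15757269, minus strand), with 6.28, 11.2 and 4.94 CPM in isp-1 and 71.9, 71.6 and 64.6 CPM in wild type. The groups lay far apart, and wild-type libraries were close to each other. The gene fell by 3.21 log2 units (SE 0.53, 9.24-fold, limma adjusted p = 0.00281), the sixth lowest value among 14013 genes.

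A low Warthog gene, wrt-8, had 0.493, 1.66 and 0.345 CPM in isp-1 and 5.71, 5.88 and 5.75 CPM in wild type. The isp-1 values rest on 8, 19 and 3 reads, yet no isp-1 library came near the wild-type ones. It fell by 2.37 log2 units (SE 0.39, adjusted p = 0.00172).

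Less firm were the calls of wrt-6 and wrt-9. The values of wrt-6 were 8.81, 14.4 and 7.24 CPM in isp-1 and 36.6, 33.0 and 30.3 CPM in wild type (log2 fold change -1.72, SE 0.52, adjusted p = 0.0402). For wrt-9 the values were 1.91, 3.66 and 2.30 CPM in isp-1 and 11.4, 9.30 and 7.59 CPM in wild type (-1.69, SE 0.44, adjusted p = 0.0196). Neither pair of groups overlapped. With 1 library left out, wrt-6 kept its call in 5 of 12 fits and wrt-9 in 8 of 12.

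The other 5 Warthog genes did not pass the test. A further Warthog gene, wrt-10, had 10, 14.8 and 9.30 CPM in isp-1 and 13.5, 8.44 and 11.4 CPM in wild type, and the groups overlapped (log2 fold change 0.03, 95% interval -0.57 to 0.63). Chosen after their values were seen, wrt-5 was at 0.00 (interval -0.52 to 0.51) and wrt-3 at 0.43 (adjusted p = 0.313). Reads of wrt-3 are uncertain, since 1002 of its exon bases are shared with a pseudogene on the same strand.

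Of 11 Groundhog genes, whose products carry a Ground domain, 5 fell in isp-1 and 0 rose. The largest fall was that of grd-6, with 6.96, 15.5 and 11.5 CPM in isp-1 and 60.2, 46.7 and 42.9 CPM in wild type. All isp-1 libraries lay well under the wild-type ones, and the gene fell by 2.15 log2 units (SE 0.63, adjusted p = 0.0391). Next came grd-2, with 1.48, 4.36 and 1.26 CPM in isp-1 and 12.3, 10.6 and 9.54 CPM in wild type, which again did not overlap (-2.13, SE 0.56, adjusted p = 0.0213).

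The lowest member per length, grd-11, had 0.431, 1.48 and 0.459 CPM in isp-1 and 2.58, 2.78 and 2.03 CPM in wild type (-1.28, SE 0.31, adjusted p = 0.0141). It shares 66 exon bases with K02E2.8 on the opposite strand, and whether counting used the strand is not stated in the sources used here. The other falls were grd-12 (-1.20, adjusted p = 0.0126) and grd-1 (-1.13, adjusted p = 0.0209), both outside the naming rule. In grd-12, levels were 0.246, 0.436 and 0.23 CPM in isp-1 and 1.68, 1.07 and 1.31 CPM in wild type, and 105 of its exon bases are shared with F02D8.1 on the opposite strand. Without the wild-type libraries, neither grd-11 nor grd-12 would have passed the filter of 1 CPM in 3 libraries. Both were thus tested because they were high in wild type, and their calls against it carry little weight of their own. With 1 library left out, grd-6 stayed called in 5 of 12 fits, grd-2 in 7, grd-11 and grd-1 in 8 each, and grd-12 in 9.

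Neither Groundhog gene of the pair with the highest levels per length passed the test. In isp-1, grd-5 had 84.9, 87.5 and 83.1 CPM, against 129, 111 and 103 CPM in wild type (-0.42, adjusted p = 0.428). The other, grd-3, had 111, 90 and 102 CPM in isp-1 and 81.3, 83.9 and 77.5 CPM in wild type (0.31, adjusted p = 0.383). Both pairs of groups were apart, grd-5 with isp-1 lower and grd-3 with isp-1 higher.

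Among 11 tested Ground-like genes, 2 fell in isp-1. The Ground-like gene with the highest level per length, grl-16, had 58.6, 113 and 50.9 CPM in isp-1 and 263, 262 and 228 CPM in wild type. All wild-type libraries were above all isp-1 libraries, and the gene fell by 1.84 log2 units (SE 0.52, adjusted p = 0.0345). Also lower was grl-7, whose product lies in the apical extracellular matrix, with 9.67, 18.8 and 5.97 CPM in isp-1 and 42.5, 37.2 and 36.2 CPM in wild type (-1.85, SE 0.58, adjusted p = 0.0492). The call of grl-7 was lost in edgeR, and with 1 library left out grl-7 was called in 5 of 12 fits and grl-16 in 6. The second by level, grl-4, was at -0.89 (adjusted p = 0.124).

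The single-gene families did not pass the test. For qua-1, a Hog-domain gene needed for molting, values were 21.0, 37.9 and 21.5 CPM in isp-1 and 80.3, 60.2 and 59.4 CPM in wild type (-1.34, 95% interval -2.54 to -0.14, adjusted p = 0.111). For hog-1 they were 2.16, 3.05 and 1.95 CPM in isp-1 and 4.19, 4.01 and 4.56 CPM in wild type (-0.74, adjusted p = 0.176). Both genes had every isp-1 library under every wild-type library.

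Neither patched homolog was called. The level of ptc-1, which is needed for cytokinesis in the germ line, was 682, 636 and 697 CPM in isp-1 and 715, 696 and 637 CPM in wild type. The groups overlapped, and the log2 fold change was -0.02 (95% interval -0.34 to 0.29, adjusted p = 0.937). For ptc-3, an essential gene with a role in sterol handling, values were 50.2, 61.5 and 48.2 CPM in isp-1 and 78.1, 75.5 and 77.8 CPM in wild type (-0.54, interval -1.08 to 0.01, adjusted p = 0.158).

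The ptr family showed calls in both directions, with 2 genes higher and 2 lower of 23. The higher ones were ptr-25 and ptr-13. In isp-1, ptr-25 (WBGene00009653, chromosome III, 10488124 to 10500239, plus strand) had 9.92, 10 and 10.3 CPM, against 4.81, 3.53 and 4.03 CPM in wild type. Its replicates were tight and far apart between groups, and it rose by 1.21 log2 units (SE 0.17, 2.31-fold, adjusted p = 0.000435).

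Likewise ptr-13 had 28.5, 30.2 and 29.2 CPM in isp-1 and 17.9, 19.5 and 17.8 CPM in wild type (0.66, SE 0.14, 1.58-fold, adjusted p = 0.00756). No libraries overlapped. The lower ones were ptr-18 and, outside the naming rule, ptr-16 (-1.21, adjusted p = 0.0375). The product of ptr-18 is known to help clear GRL-7 from the extracellular space. It had 9.55, 17.7 and 11.3 CPM in isp-1 and 39.6, 30.9 and 32.1 CPM in wild type (-1.42, SE 0.44, adjusted p = 0.0410). With 1 library left out, ptr-18 stayed called in 5 of 12 fits and ptr-16 in 6.

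Both ptr genes with the highest levels per length were near wild type. The log2 fold change of ptr-2 was -0.13 (95% interval -0.40 to 0.14) and that of ptr-21 0.02 (interval -0.19 to 0.22). Chosen after their values were seen for their known roles, ptr-4, which organises the precuticle, was at -1.01 (adjusted p = 0.102) and ptr-23, which acts in molting and osmotic regulation, at -0.65 (adjusted p = 0.109). The pair grl-21 and ptr-24, reported to act together on mitochondrial shape and lipid stores in the worm, was at -0.81 (adjusted p = 0.262) and -0.50 (adjusted p = 0.0731).

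**Figure D3:**
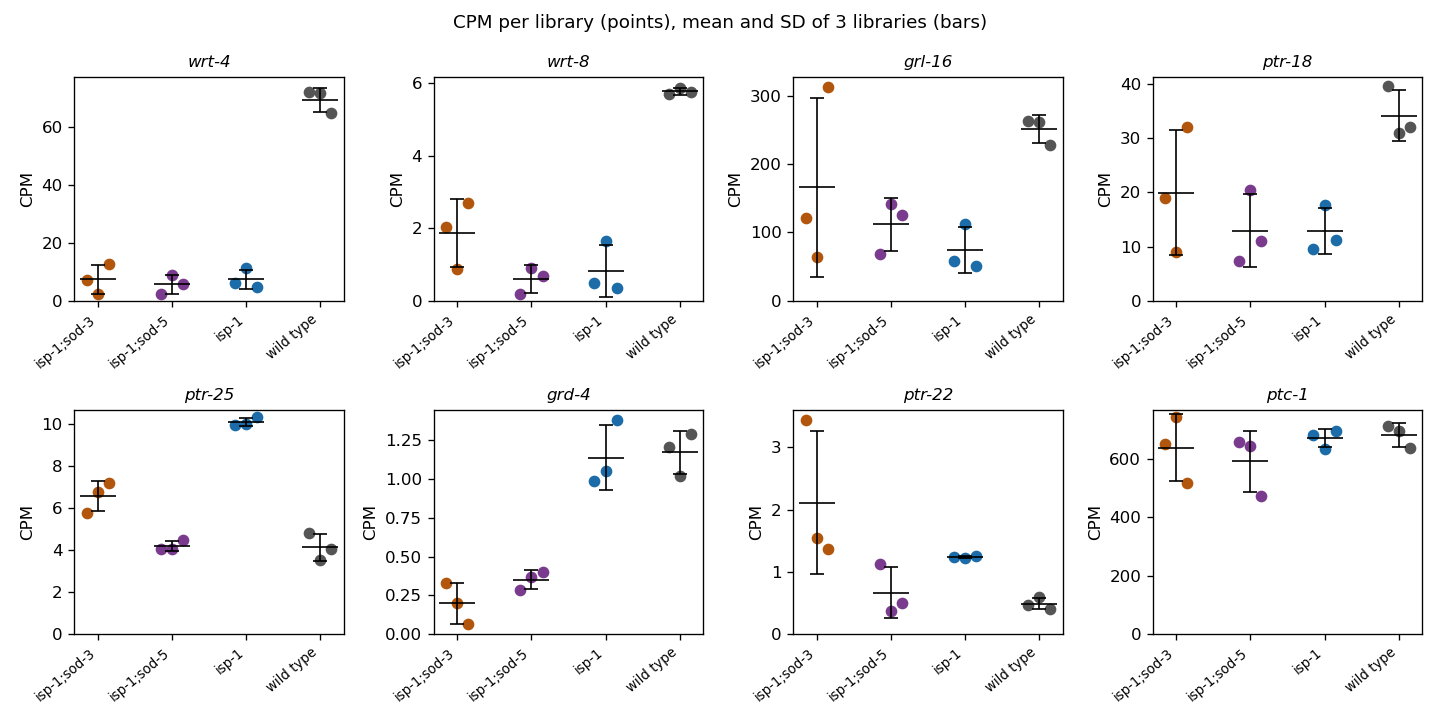
CPM of 8 selected members in each library on a linear axis that starts at 0, 1 panel per gene and 1 point per library, with bars at the mean and 1 SD of 3 libraries and groups running from the sod-3 double mutant at the left to wild type at the right. All 9 mutant libraries lie under wild type for wrt-4 and wrt-8, the 3 isp-1 libraries lie above all others for ptr-25, and the 6 double-mutant libraries lie under the rest for grd-4.

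Members moved together from library to library within a genotype. In the sod-3 double mutant, replicate 3 was the highest of the 3 libraries for 47 of 58 members (81.0%, against 37% of all tested genes), and replicate 2 the lowest for 52 (89.7%, against 49.6%). In the sod-5 double mutant, replicate 1 was the lowest for 46 members (79.3%, against 55.7%). In isp-1, replicate 2 was the highest for 46 (79.3%, against 35.3%). The median within-group SD of the members on the log2 scale was 0.61 in sod-3 double mutants, 0.53 in sod-5 double mutants, 0.28 in isp-1 and 0.15 in wild type. Over all tested genes it was 0.22 in sod-3 double mutants, 0.27 in sod-5 double mutants, 0.13 in isp-1 and 0.12 in wild type, so the members spread more in all 4 groups.

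Cuticle and sperm genes also varied between these libraries. The summed level of the 33 secreted members was 553, 309 and 1069 CPM in sod-3 double mutants, 344, 653 and 712 CPM in sod-5 double mutants, 424, 557 and 404 CPM in isp-1, and 1054, 960 and 888 CPM in wild type. By this sum the third sod-3 double-mutant library lay above every wild-type library, and its second under every other library. The sum is weighted to a few abundant genes, grl-16 giving 313 of the 1069 CPM. By the mean log2 deviation, which weights genes equally, the third sod-3 double-mutant library (0.71) was level with the first wild-type one (0.71), and the lowest was the first sod-5 double-mutant library (-0.80), with the second sod-3 one at -0.76. For 35 molting genes the mean log2 deviation from each gene's average ran from -0.36 to 0.49 in sod-3 double mutants, -0.51 to 0.18 in sod-5 double mutants, -0.21 to 0.04 in isp-1 and 0.07 to 0.38 in wild type.

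For 130 collagen genes (col-) that deviation ran from -0.69 to 0.77 in sod-3 double mutants, -0.52 to 0.25 in sod-5 double mutants, -0.46 to 0.05 in isp-1 and 0.23 to 0.25 in wild type. For 53 sperm genes (msp- and spe-), which mark the stage of the germ line, the summed level was 467 to 1221 CPM in sod-3 double mutants, 625 to 983 CPM in sod-5 double mutants, 587 to 728 CPM in isp-1 and 1264 to 1442 CPM in wild type. In isp-1 against wild type, 34 of 53 sperm genes fell and 0 rose, 20 collagen genes fell and 19 rose of 130, and 3 molting genes fell and 1 rose of 35. The part of the molting cycle or of the stage of the worms in the members' differences was not tested. In isp-1 against wild type, the marker lists of cell types had median log2 fold changes of -0.13 for epidermis and seam (1 higher and 1 lower of 12), -0.11 for glia (1 higher of 9), -0.45 for pharynx (1 higher and 1 lower of 6), -0.03 for the 8 neuronal genes and -0.15 for intestine (1 higher and 1 lower of 8). The summed level of the epidermis and seam markers was 1862 to 2059 CPM in isp-1 and 1778 to 1882 CPM in wild type. That sum is mostly col-19, which had 1490 to 1653 CPM in isp-1 and 1213 to 1292 CPM in wild type. By the mean log2 deviation the same markers were at -0.14, -0.02 and -0.15 in isp-1 and 0.28, 0.06 and -0.03 in wild type. The glial markers summed to 171 to 198 CPM in isp-1 and 185 to 234 CPM in wild type. The pharynx markers summed to 383 to 449 CPM in isp-1 and 572 to 680 CPM in wild type, and the intestine markers to 3446 to 3737 CPM in isp-1 and 4865 to 5135 CPM in wild type. The intestine sum is weighted to asp-1, with 1625 to 1817 CPM in isp-1 and 2657 to 2790 CPM in wild type. The part of these cell types in the members' differences was not tested. In whole worms, fewer cells of a type and less RNA per cell cannot be told apart.

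**Figure D4:**
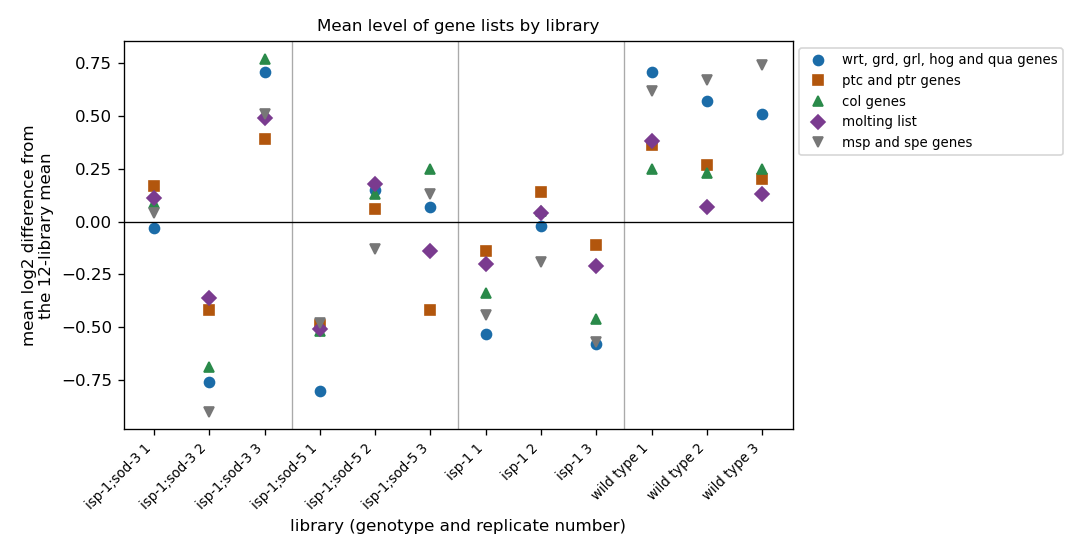
Mean deviation of log2(CPM + 0.5) from each gene's average over 12 libraries, for secreted members, patched-related members, collagens, molting genes and sperm genes, with 1 position per library and the 4 genotypes separated by lines. All 5 lists are above 0 in the 3 wild-type libraries and in replicate 3 of the sod-3 double mutant, and below 0 in its replicate 2, in replicate 1 of the sod-5 double mutant and in isp-1 replicates 1 and 3.

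Of 11 tested genes tied to the pathway by homology, 1 rose and 3 fell in isp-1, with a median log2 fold change of -0.14. That is 36.4% called and 27.3% lower, beside 20.0% and 10.4% of all tested genes. The rise was that of scp-1, a homolog of the sterol sensor SCAP, with 79.2, 75.9 and 80.2 CPM in isp-1 and 57.3, 58.4 and 62.4 CPM in wild type (0.40, SE 0.12, adjusted p = 0.0394). Of the falls, ncr-2, an NPC1 homolog, had 2.96, 5.49 and 2.64 CPM in isp-1 and 7.73, 7.27 and 7.73 CPM in wild type (-1.01, SE 0.31, adjusted p = 0.0374). Both pairs of groups were apart.

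The hedgehog acyltransferase homolog hhat-1 fell by 1.35 log2 units (adjusted p = 0.0463), and phg-1 fell by 1.36 (adjusted p = 0.0356). Not called were the patched-related glial gene daf-6 (-0.99, adjusted p = 0.0527), the Dispatched-like gene che-14 (-0.27), the megalin homolog lrp-1 (0.02), ncr-1 (-0.10), hhat-2 (-0.01), the Gli homolog tra-1 (-0.14) and the sex-determination receptor gene tra-2 (0.09). In neither double mutant was any of the 11 called against isp-1. Against wild type, scp-1 was higher in sod-3 double mutants (0.40, adjusted p = 0.0435), and daf-6 (-1.18, adjusted p = 0.0223), ncr-2 (-1.20, adjusted p = 0.0150) and phg-1 (-1.32, adjusted p = 0.0347) were lower in sod-5 double mutants.

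The comparison of sod-3 double mutants with isp-1 asks what the loss of sod-3 adds, and 1 of 58 members was called, lower (0.528% of all tested genes were called lower and 1.08% in either direction). That member was grd-4 (WBGene00001693, chromosome X, 8501222 to 8502288, plus strand), a Groundhog gene expressed at a low level. It had 0.329, 0.201 and 0.0645 CPM in sod-3 double mutants and 0.986, 1.05 and 1.38 CPM in isp-1, on 51, 3 and 1 reads and on 16, 12 and 12 reads. The groups were apart, and the gene fell by 1.24 log2 units (SE 0.22, adjusted p = 0.0106).

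The sod-5 double mutants were also low for grd-4, with 0.282, 0.368 and 0.400 CPM on 3, 2 and 8 reads. Against isp-1 the log2 fold change there was -0.94 (adjusted p = 0.0589), and isp-1 overlapped with wild type, which had 1.21, 1.02 and 1.29 CPM. Its neighbour grd-14, whose gene ends 184 bases before grd-4 on the same strand, was at 0.24 in sod-3 and 0.20 in sod-5 double mutants against isp-1. The sod-3 call of grd-4 was lost without isp-1 replicate 3 (adjusted p = 0.0704) and with only the 2 groups in the fit (adjusted p = 0.115).

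The median log2 fold change of the members in sod-3 double mutants against isp-1 was 0.25, beside 0.03 for all tested genes. It was -0.02 without sod-3 double-mutant replicate 3 and 0.58 without its replicate 2, so 1 library decided its sign. The 57 members that were not called lay between -0.59 for ptr-25 and 0.94 for grl-16 (adjusted p = 0.695), whose sod-3 double-mutant values were 121, 64 and 313 CPM. The Warthog gene wrt-4 had 7.16, 2.54 and 12.6 CPM in sod-3 double mutants, which overlapped with isp-1 (-0.16, adjusted p = 0.961). For wrt-8 the values were 2.04, 0.871 and 2.71 CPM, which also overlapped with isp-1 (0.88, 95% interval 0.03 to 1.72, adjusted p = 0.550).

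In sod-5 double mutants against isp-1, which asks what the loss of sod-5 adds, 1 of 58 members was called, again lower (0.564% of all tested genes were called lower and 1.21% in either direction). That member was ptr-25, which was higher in isp-1 than in wild type. It had 4.04, 4.05 and 4.45 CPM in sod-5 double mutants and 9.92, 10 and 10.3 CPM in isp-1. The groups were far apart, and ptr-25 fell by 1.18 log2 units (SE 0.17, adjusted p = 0.00198), a call kept in all 12 fits with 1 library left out. The count of members called was 3 without sod-3 double-mutant replicate 2 (1.86% of all tested genes) and 2 without its replicate 3 (1.4%).

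The ptr-25 values of sod-5 double mutants overlapped with those of wild type, which were 4.81, 3.53 and 4.03 CPM (log2 fold change 0.03, 95% interval -0.33 to 0.38). The sod-3 double mutants lay between, with 5.75, 6.76 and 7.16 CPM, under every isp-1 library without passing the test (-0.59, adjusted p = 0.161) and above every wild-type library (0.61, adjusted p = 0.0232). The comparisons of both double mutants with isp-1, and that of isp-1 with wild type, share the isp-1 libraries. The rise of ptr-25 in isp-1 and its fall in sod-5 double mutants are therefore not independent. The other gene that rose in isp-1, ptr-13, had 21.1, 22.6 and 18.5 CPM in sod-5 double mutants (-0.49 against isp-1, adjusted p = 0.135) and 29.7, 20.3 and 26.5 CPM in sod-3 double mutants (-0.21, adjusted p = 0.749).

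The direct comparison of sod-3 with sod-5 double mutants called 0 of 58 members in limma, edgeR and DESeq2 (limma called 0.107% of all tested genes). At an unadjusted p under 0.05 stood 5 members (8.62%, against 3.77% of all tested genes), all higher in sod-3 double mutants. Named after their values were seen, they were wrt-8 (log2 difference 1.08), grl-10 (0.60), ptr-17 (1.03), ptr-22 (1.13) and ptr-25 (0.59). For ptr-22 the values were 3.44, 1.54 and 1.36 CPM in sod-3 double mutants and 1.13, 0.368 and 0.5 CPM in sod-5 double mutants (adjusted p = 0.747). These groups were apart, the sod-5 values resting on 12, 2 and 10 reads.

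Against wild type, 8 members were called in sod-3 double mutants, 3 higher and 5 lower (17% of all tested genes were called, 10.4% higher and 6.57% lower). In sod-5 double mutants 14 were called, 1 higher and 13 lower (24.3% of all tested genes, 14.1% higher and 10.2% lower). These comparisons share the wild-type libraries with that of isp-1. The widest difference was again that of wrt-4, at -3.37 in sod-3 (adjusted p = 0.00148) and -3.65 in sod-5 double mutants (adjusted p = 0.000844), beside -3.21 in isp-1. For wrt-8 the values were -1.49 (adjusted p = 0.0206), -2.57 (adjusted p = 0.000604) and -2.37.

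Both grd-4 and grd-11 fell in each double mutant against wild type. Like grd-11 and grd-12, grd-4 passed the filter on low values only with the wild-type libraries, so these falls are no independent sign of a difference. For grd-4 the log2 fold changes were -1.27 in sod-3 (adjusted p = 0.00150) and -0.97 in sod-5 double mutants (adjusted p = 0.00702), beside -0.03 in isp-1. For grd-11 they were -1.52 (adjusted p = 0.00500), -1.53 (adjusted p = 0.00408) and -1.28. Also lower in both was ptr-24, chosen after its values were seen, with 49.5, 28.1 and 45.5 CPM in sod-3 double mutants, 36.8, 51.7 and 41.7 CPM in sod-5 double mutants and 83.3, 74.5 and 66.5 CPM in wild type (-0.89, adjusted p = 0.00580, and -0.79, adjusted p = 0.00950). All 6 double-mutant libraries were under wild type.

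Called in 1 double mutant against wild type, and neither in the other nor in isp-1, were 4 members, all chosen after their values were seen. They were ptr-22 in sod-3 double mutants (1.32, adjusted p = 0.00994) and ptr-1 (-1.51, adjusted p = 0.00812), ptr-17 (-1.49, adjusted p = 0.00709) and wrt-3 (0.91, adjusted p = 0.0337) in sod-5 double mutants. In the direct comparison of the double mutants none of these 4 was called. All 4 also lay on the same side of wild type in isp-1, so the calls do not set 1 double mutant apart from isp-1. Mean CPM in isp-1 and wild type was 1.24 and 0.486 for ptr-22, and 9.42 and 16.5 for ptr-1. It was 1.0 and 2.37 for ptr-17, and 2.96 and 2.03 for wrt-3. The remaining calls had the direction seen in isp-1, with ptr-13 higher (0.44, adjusted p = 0.0446) in sod-3 double mutants, and wrt-9, grd-1, grd-2, grd-12, ptr-16 and ptr-18 lower in sod-5 double mutants, between -1.92 for grd-2 and -1.0 for grd-12. Without sod-3 double-mutant replicate 3, the library that was highest for most members, 28 members were called in sod-3 double mutants against wild type (25.2% of all tested genes), and without wild-type replicate 2 or 3 there were 5 (8.64% and 10.7%). In sod-5 double mutants against wild type, 24 members were called without sod-3 double-mutant replicate 3 (28.3% of all tested genes) and 22 without its replicate 2 (29.7%). There the count was 7, 9 and 8 without wild-type replicates 1, 2 and 3 (13.4%, 13.3% and 15.8%), and 8 without sod-5 double-mutant replicate 1 (19.6%).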

How the data were processed

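The matrix deposited by the authors holds CPM (counts per 1000000 reads in genes) for 14326 genes in 12 libraries of messenger RNA from whole worms, and every row exceeds 1 CPM in at least 2 libraries. Per the submitters' processing notes, the tools were featureCounts 1.4.6, Subread 1.5.0, R 3.3.0, edgeR 3.14.0, FastQC 0.11.3 and bcl2fastq 2.17.1.14 with the build WBcel235, and no roles are given. Values were whole multiples of 1 read (100.0% within 0.001 reads), which gave back reads and depths, in the deepest library from all its values because few were low. On these reads, edgeR called 3010 genes in isp-1 against wild type, beside 2798 in limma. Names and exon lengths came from the WBcel235 annotation, which held 14250 identifiers.

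In R 4.3.3, limma 3.58.1 (trended, robust) was fitted to log2(CPM + 0.5) over all 12 libraries, without a replicate block, for 14013 genes above 1 CPM in at least 3 libraries. Benjamini-Hochberg adjustment ran over all genes tested within a comparison, at 0.05, and p-values were two-sided. Scripts were tested on simulated data. Alternatives covered filter, pseudocount, scaling, edgeR 4.0.16 and DESeq2 1.42.0 on recovered reads, the groups in the fit, a replicate block, left-out libraries and, chosen after seeing the data, library weights.

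Genes named by rule were up to 10 rises and 10 falls by fold among members called in isp-1 against wild type and in each double mutant against isp-1, the 2 members with the highest CPM per kb in each family, and ptc-1, ptc-2 (not a name in this annotation), ptc-3, qua-1, hog-1 and wrt-4. Members and lists were chosen with earlier results of these data known. No sequences are shown.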

Additional observations from a re-analysis of the deposited data

How the results depend on the processing

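Of the results for named genes under the alternatives, 495 kept direction and side of the threshold, 54 lost the call, 15 gained it and 9 changed sign. Calls in isp-1 against wild type (15) numbered 41 with only the 2 groups in the fit (40.7% of all tested genes), 40 with library weights (46.6%) and 4 to 22 with 1 library left out. In sod-3 double mutants against isp-1 (1) there were 2 with DESeq2 (2.31% of all tested genes) and 5 with library weights (6.07%). There were 0 with only the 2 groups (0.756%) and 0 with a filter of 2 CPM, which grd-4 did not pass. The count was 0 to 1 with 1 library left out. In sod-5 double mutants against isp-1 (1) there were 2 with DESeq2 (2.45%), 2 with TMM factors (1.73%) and 2 with median centring (1.71%). With 1 library left out there were 1 to 3. Against wild type, calls in sod-3 double mutants (8) numbered 29 with library weights (43.2%) and 5 to 28 with 1 library left out, and in sod-5 double mutants (14) 22 with median centring (24.4%), 23 with only the 2 groups (23.9%) and 7 to 24 with 1 library left out. Between the double mutants 0 were called in all settings. The cause of these shifts was not tested.

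Changes of sign in this tally of named genes were all in isp-1 against wild type and without a call. They came with 1 library left out for grd-4 (-0.14 to 0.03), ptc-1 (-0.07 to 0.02), ptr-21 (-0.03 to 0.05) and wrt-10 (-0.17 to 0.18), and with library weights for grd-4 (0.04). The tally held at most 25 results per setting, so most pairs of member and comparison lay outside it. In sod-3 double mutants against isp-1, 17 of 58 members lay below 0, and 31 without sod-3 double-mutant replicate 3. In sod-5 double mutants against isp-1, 28 lay below 0, and 40 without sod-5 double-mutant replicate 2.

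Same-numbered libraries did not deviate together (5 of 18 pairs correlated above 0.1, from -0.55 to 0.33, and 2 of 12 libraries correlated best with their own number). With a replicate block, 10 members were called in isp-1 against wild type (15.6% of all tested genes). Against isp-1 there was 1 in sod-3 (0.906%) and 1 in sod-5 double mutants (0.878%), and 0 between the double mutants. Against wild type there were 7 in sod-3 (13%) and 11 in sod-5 double mutants (19.6%). Members near 1 CPM rest on few reads in the shallow libraries, down to 1 read for grd-4.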
